A study of Mus musculus with 8 samples.

Results

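Heat shock proteins and DnaJ proteins are molecular chaperones, and 66 of their protein-coding genes were examined in sorted cochlear hair cells of Ndp knockout and wild-type mice. The members were taken by symbol from a deposited table of 25343 genes: Hspa, Hspb, Hspd, Hspe and Hsph genes, the cytosolic HSP90 genes, and the Dnaja, Dnajb and Dnajc genes. Hspa5, Hsp90b1 and Dnajc5b were left out. Of the 66 members, 64 had a normalized count of 10 or more in at least 4 of the 8 libraries and were compared between genotypes, among 18203 genes tested in all. Ndp encodes norrin, a secreted ligand of Frizzled 4. It was knocked out in the Ndp KO group (4 libraries) and intact in the WT group (4 libraries). Both groups were on a mixed C57BL/6 and 129 background, were collected at postnatal days 4 to 6, and carried the Atoh1-GFP reporter by which the cells were sorted. Each library came from a tube of 12 to 20 pooled sensory epithelia, so single animals cannot be told apart. The labels do not say which part of Ndp the allele lacks, or that pools came from separate litters, so a p-value reflects no more than library-to-library spread, part of which may be technical.

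Chaperones bind unfolded stretches of other proteins and help them to fold, to be refolded after stress or to be taken apart. HSP70 proteins do this in cycles of ATP hydrolysis: a DnaJ protein delivers the client and starts hydrolysis through its J domain, and an exchange factor such as an HSP110 protein releases the nucleotide. HSP90 takes over clients such as kinases and steroid receptors, the chaperonin of Hspd1 and Hspe1 folds proteins inside mitochondria, and small heat shock proteins hold unfolded proteins without ATP. Some of these genes are read all the time, and others are induced by heat shock factor 1 under stress. In the inner ear, induced HSP70 is known for protecting hair cells from ototoxic drugs.

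The libraries held 35077950 to 48329827 reads, as worked back from the normalized counts, and 3 reads were worth 2.34 to 3.49 normalized counts. Ndp itself had 10.5, 22.6, 66.8 and 45.1 normalized counts in Ndp KO replicates 1 to 4, against 174, 90.4, 114 and 206 in WT replicates 1 to 4, so the genotypes did not overlap (log2 difference, Ndp KO minus WT, -2.20 ± 0.56 SE, limma adjusted p = 0.895). All 10 hair cell markers were found, with a sum of 358509 to 422881 normalized counts in the Ndp KO libraries and 347278 to 391058 in the WT libraries. The median log2 difference of the hair cell markers was 0.11, with 8 above 0 and 2 below 0. At an unadjusted limma p under 0.05, 1 was higher in Ndp KO and 0 lower. The 12 markers of supporting cells, which lie beside hair cells, were all found too, with a sum of 286883 to 416572 normalized counts in the Ndp KO libraries and 254463 to 476306 in the WT libraries. Their median log2 difference was -0.17, with 9 below 0 and 3 at an unadjusted limma p under 0.05, each lower in Ndp KO. Over all genes tested, 2.47% were lower at that p. Hes5 (-0.98) and Hey1 (-0.60) did not overlap between genotypes, and the third was Sox2 (-0.40). Of all genes tested, 1.58% did not overlap with Ndp KO lower. The 12 macrophage markers summed to 3759 to 5968 normalized counts in the Ndp KO libraries and 2098 to 4993 in the WT libraries, and the median log2 difference of the 11 tested was 1.73, with Cd52 and Ptprc at 0 in some libraries. The 10 mesenchyme and fibrocyte markers summed to 19463 to 32832 normalized counts in the Ndp KO libraries and 16923 to 23731 in the WT libraries, and 7 endothelial markers to 214 to 443 normalized counts in the Ndp KO libraries and 119 to 190.2 in the WT libraries, with median log2 differences of 0.64 and 1.13. At an unadjusted limma p under 0.05, 4 macrophage, 3 mesenchyme and fibrocyte and 1 endothelial marker were higher in Ndp KO. In each of these lists 0 were lower at that p, and 3.1% of all genes tested were higher. By group means, Calb1 was the largest part of the hair cell sum, Tectb of the supporting cell sum, C1qb of the macrophage sum and Lum of the mesenchyme sum. C1qb and Lum had log2 differences of 0.21 and -0.22, so those sums say little about the other markers of their lists. The part of supporting cells, macrophages, mesenchyme and endothelial cells in the members' values was not tested. In such bulk samples, fewer cells of a type and less RNA per cell cannot be told apart.

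The levels of the members, as normalized counts per kilobase of exon, ran from 11.3 for Hspa12b to 23961 for Hsp90ab1 among the genes compared (means over 8 libraries). Hsp90ab1, the constitutive cytosolic HSP90, was highest, with 23560.4 ± 1381 in Ndp KO and 24361 ± 2117 in WT per kilobase (SD, n = 4 each). Hspa8, which encodes the constitutive Hsc70, came next with 13755 ± 457 in Ndp KO and 12211 ± 1832 in WT. Hsp90aa1, the inducible HSP90, followed with 6814 ± 902 in Ndp KO and 7088 ± 1601 in WT. These 3 cytosolic genes lay above every other member, and their ranges did not overlap within either genotype. The chaperonin gene Hspd1 came after them with 4081 ± 327 in Ndp KO and 3887 ± 442 in WT, and Hspa2, an HSP70 best known from the testis, had 3448 ± 112 in Ndp KO and 3529.9 ± 67.7 in WT (SD, n = 4 each). In WT those means differed by less than the SD of Hspd1. The stress-inducible HSP70 genes were far lower: Hspa1b had 83.1 ± 31.6 in Ndp KO and 96.3 ± 64.7 in WT per kilobase, and Hspa1a 32.1 ± 23.2 in Ndp KO and 31.5 ± 19.9 in WT (SD, n = 4 each). Inducible genes of other families were not all low, with 1076 for Dnajb1 and 126 for Hspb1 per kilobase (means over 8 libraries). Lengths were exon unions of GENCODE M21, and a level is uncertain where copies of a gene share its sequence. For 20 of 66 members, over 10% of their 31-base stretches also occur in transcripts of other genes. The share was 70.1% for Hspa1a, 51.5% for Hsp90aa1, 44.8% for Hspa8 and 13.2% for Hsp90ab1. It was 71.7% for Hspa1l, 55.4% for Hspb1 and 43.3% for Dnaja4.

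**Figure D1:**
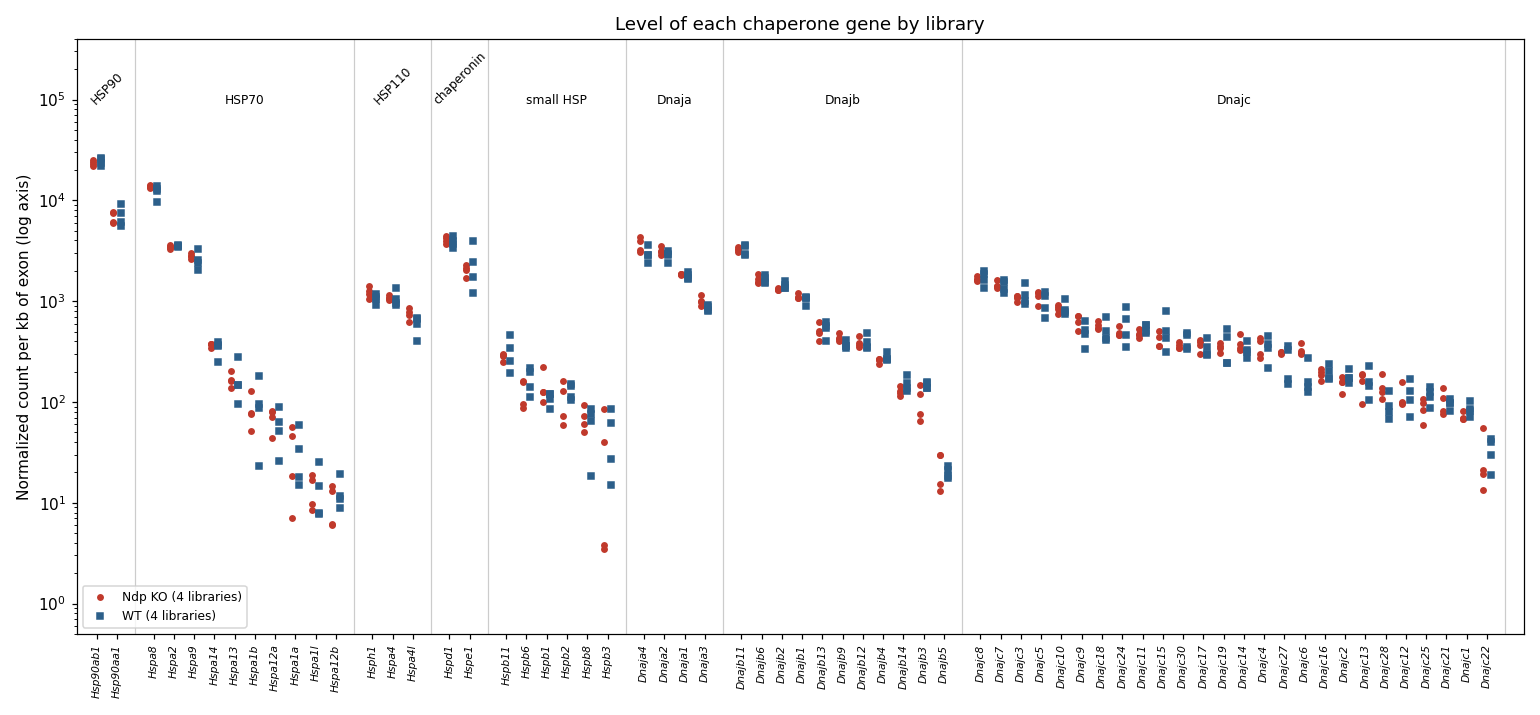
Normalized counts per kilobase of exon (log axis) of the 64 members compared, grouped by family and ordered by level within it, with Ndp KO libraries as circles and WT libraries as squares. Hsp90ab1, Hspa8 and Hsp90aa1 stand highest, while Hspa1a, Hspa1l and Hspa12b lie at the bottom of the HSP70 genes.

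The comparison asked whether these chaperone genes differ with the loss of Ndp. No member passed the test: limma with Benjamini-Hochberg adjustment called 0 of 64 at an adjusted p under 0.05, where 0.00549% of all genes tested were called. The lowest adjusted p among members was 0.895. At an unadjusted p under 0.05 there were 2 members higher in Ndp KO, Dnajc6 and Dnajc28, against 3.1% of all genes in that direction, and 0 members lower, against 2.47% of all genes. In either direction it was 5.57% of all genes. edgeR and DESeq2 on the recovered reads called 0 members as well, beside 0% and 0.136% of all genes. Each gave 2 members at an unadjusted p under 0.05, where 4.55% of all genes in edgeR and 6.09% in DESeq2 did. The genotypes did not overlap for 1 member, Dnajc6, against 1.46% of all genes tested with Ndp KO higher, 1.58% with Ndp KO lower and 3.04% in either direction. Of the 64 members, 37 were above 0 in log2 difference and 27 below, Ndp KO minus WT, with a median of 0.01, beside 0.02 over all genes tested. The log2 difference was smaller than 0.25 in size for 47 members (73.4%), against 57.2% of all genes tested, and smaller than 1 for 63 members (98.4%), against 91.9%. Members had higher counts than genes in general, with a median of 1437 normalized counts against 579.9 (means over 8 libraries), and the part of that in the sizes of their differences was not tested.

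**Figure D2:**
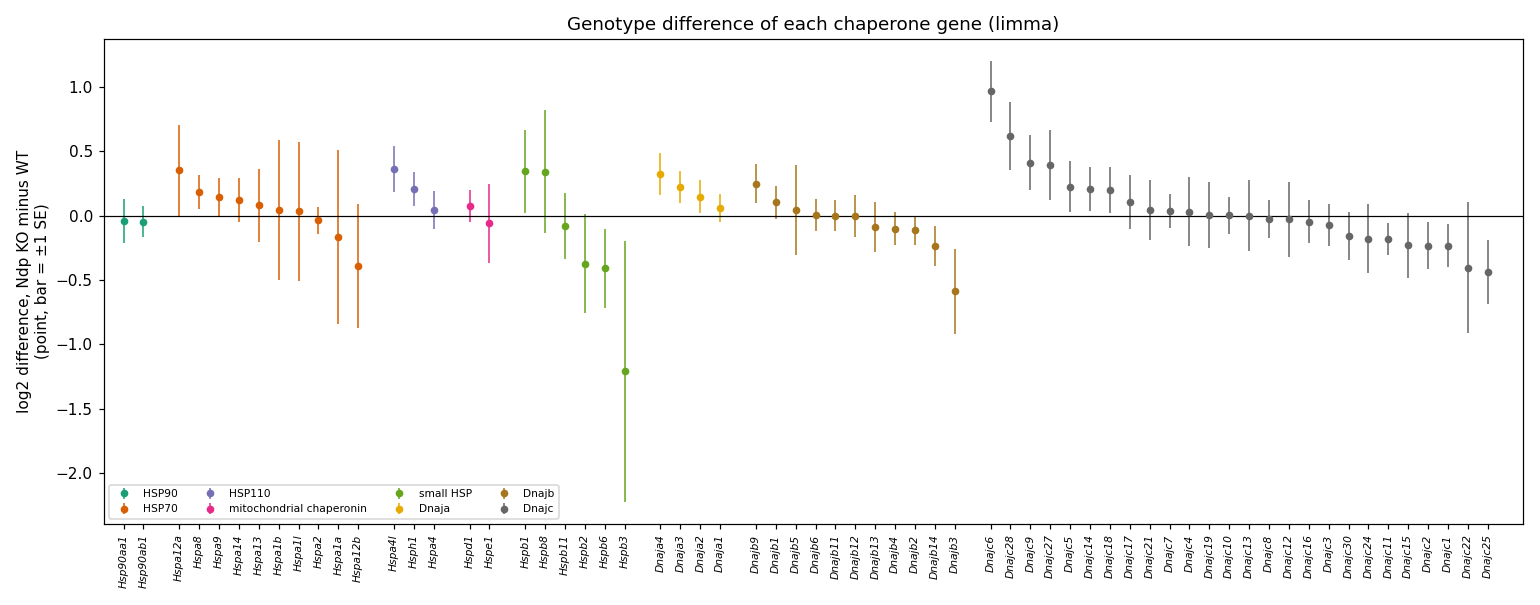
Log2 difference of each of the 64 members, Ndp KO minus WT, from limma on log2(normalized count + 1), with bars of 1 SE, grouped by family. Dnajc6 stands highest at 0.97 and Hspb3 lowest at -1.21.

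The member with the highest log2 difference and the smallest p was Dnajc6. Dnajc6 (ENSMUSG00000028528, chr4:101496648-101642799, plus strand, mm10) encodes auxilin, which brings Hsc70 to clathrin-coated vesicles so that their coat is taken off. It had 1753, 1886, 2294 and 1828 normalized counts in Ndp KO replicates 1 to 4, against 748, 1629, 829.6 and 934 in WT replicates 1 to 4. The lowest Ndp KO library lay above the highest WT library, and WT replicate 2 stood well above the other WT libraries. The means were 1940.4 ± 242 normalized counts in Ndp KO and 1035 ± 403 in WT (SD, n = 4 each), with a difference of 0.97 ± 0.24 (SE) on the log2 scale. The unadjusted p was 0.00185 in limma, with an adjusted p of 0.895 over all genes. In the authors' deposited table the log2 fold change of Dnajc6, knockout over wild type, was 0.91 with an adjusted p of 0.152. Its unadjusted p stayed under 0.05 in all 18 alternative settings, from 3.03e-05 to 0.00728, and its log2 difference was 0.84 to 1.22. The title date of replicate 2 is the same in both genotypes, and in that pair Dnajc6 had 1886 normalized counts in Ndp KO and 1629 in WT, a log2 difference of 0.21. Among the other 6 libraries the log2 difference was 1.22. The part of other cells in this difference was not tested. Neurons also use auxilin, and of the 7 neuron markers 4 had log2 differences above 0 and 3 below 0. Snap25 had a log2 difference of 0.39 ± 0.18 (SE) and Nefm one of -0.39 ± 0.15 (SE), with unadjusted p of 0.0495 and 0.0265 in limma. The markers summed to 64285 to 65926 normalized counts in the Ndp KO libraries and 62026 to 71018 in the WT libraries, most of it Gata3, with means of 39961 in Ndp KO and 39863 in WT. That sum therefore says little about the other neuron markers. Whether the Gata3 counts came from neurons was not tested.

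Dnajc28, the other member at an unadjusted p under 0.05, had 487, 681, 449 and 384 normalized counts in Ndp KO replicates 1 to 4, against 328, 281, 459 and 239.5 in WT replicates 1 to 4. WT replicate 3 lay above Ndp KO replicates 3 and 4, so the genotypes overlapped. The log2 difference was 0.62 ± 0.26 (SE) with an unadjusted p of 0.0393 and an adjusted p of 0.895 in limma. Its unadjusted p was under 0.05 in 11 of 18 alternative settings. Dnajc9, which encodes a chaperone of histones, had 1520.1 ± 239 normalized counts in Ndp KO and 1159 ± 290.3 in WT (SD, n = 4 each), with a difference of 0.41 ± 0.21 (SE) on the log2 scale. Dnajc27, the gene of a J protein with a Rab-like part, had 1594, 1582, 1540.1 and 1527 normalized counts in Ndp KO replicates 1 to 4, against 772, 1808, 1676 and 852 in WT replicates 1 to 4. The 4 Ndp KO libraries lay close together, while WT replicates 1 and 4 were low and WT replicates 2 and 3 were above them. Dnajc5 encodes cysteine string protein, a chaperone of synaptic vesicles, and had 7741 ± 1029 normalized counts in Ndp KO and 6753 ± 1777 in WT (SD, n = 4 each), with a difference of 0.23 ± 0.20 (SE) on the log2 scale and overlapping genotypes. Between the libraries of the shared title date the log2 difference of Dnajc5 was -0.45.

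The 2 annotated start regions of Dnajc6 are shown, since it is the member with the smallest p, though it was not called. They are RefSeq promoter windows of GRCm38.p6, from 250 bases before to 50 bases after the start, and capitals would mark the letters GAANNTTC or TTCNNGAA, the paired units bound by heat shock factors. Neither window holds such letters, so both are in lower case throughout.
Dnajc6 (chr4:101507726-101508025, plus strand): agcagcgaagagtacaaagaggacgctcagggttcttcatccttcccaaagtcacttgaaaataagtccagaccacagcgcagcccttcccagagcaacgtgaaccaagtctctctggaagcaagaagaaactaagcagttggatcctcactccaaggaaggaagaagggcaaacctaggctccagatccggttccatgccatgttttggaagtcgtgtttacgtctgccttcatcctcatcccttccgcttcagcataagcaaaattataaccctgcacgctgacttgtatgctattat
Dnajc6 (chr4:101550344-101550643, plus strand): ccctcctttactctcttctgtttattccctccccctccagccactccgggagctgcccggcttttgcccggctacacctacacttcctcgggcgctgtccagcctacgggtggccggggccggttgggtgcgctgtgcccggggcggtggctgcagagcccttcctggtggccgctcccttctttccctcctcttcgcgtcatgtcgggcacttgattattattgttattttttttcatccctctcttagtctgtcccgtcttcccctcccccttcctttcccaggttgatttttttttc

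**Figure D3:**
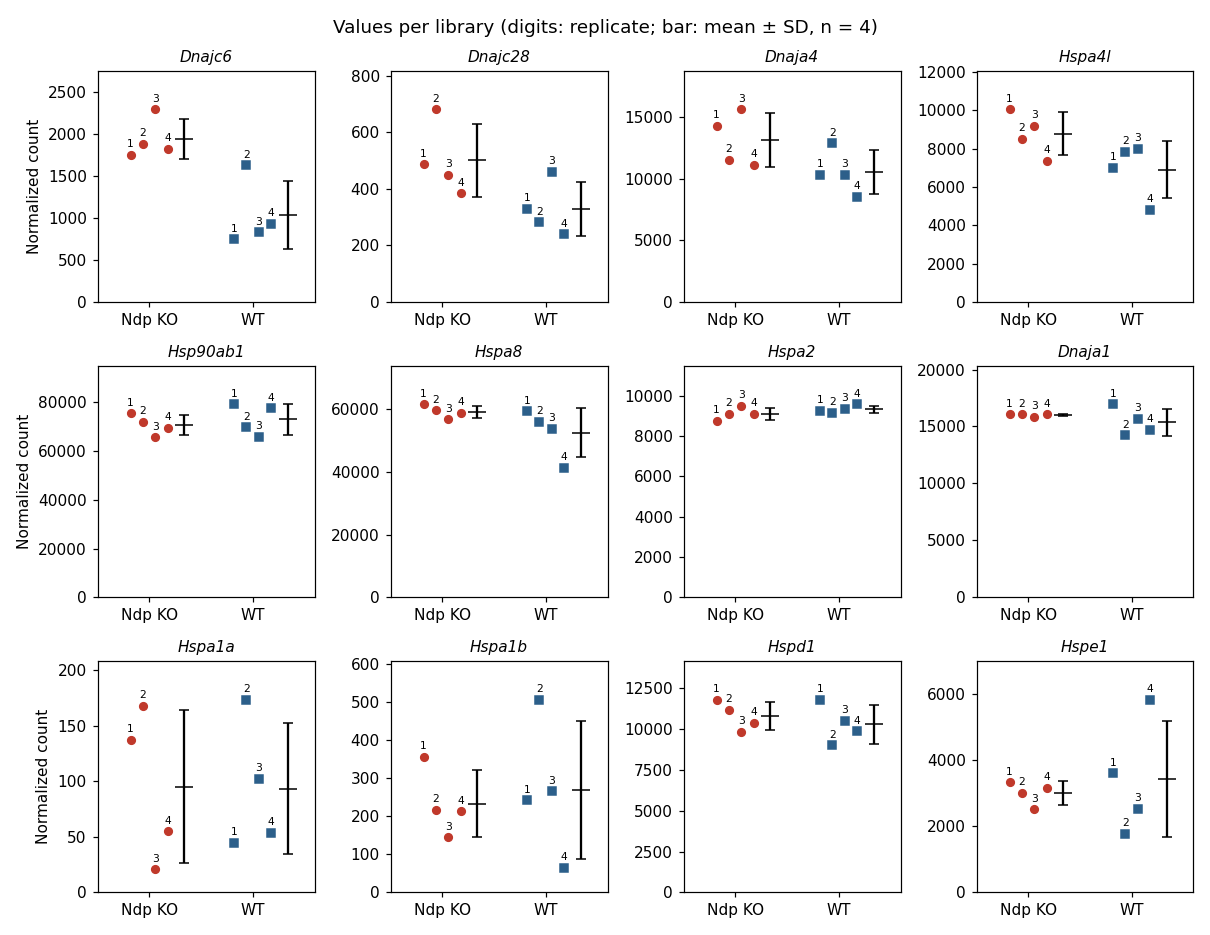
Normalized counts (linear axes from 0) of 12 members in each library, Ndp KO as circles and WT as squares, with the replicate number above each point and the mean ± SD (n = 4) beside each group. Dnajc6 is the panel in which the groups do not overlap, and WT replicate 4 is the lowest library for Hspa8 and Hspa1b but the highest for Hspe1.

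The cytosolic HSP90 genes and the HSP70 genes had no called difference between genotypes. Hsp90ab1 had 75503, 71976, 65671 and 69481 normalized counts in Ndp KO replicates 1 to 4, against 79152, 69704, 65825 and 77556 in WT replicates 1 to 4. Hsp90aa1 had 26784 ± 3546 in Ndp KO and 27863 ± 6292 in WT (SD, n = 4 each), with WT replicate 4 the highest of all libraries at 35988 normalized counts. Their log2 differences were -0.05 ± 0.12 (SE) and -0.04 ± 0.17 (SE), each smaller than its error, and the genotypes overlapped for both. Hspa8 had 61476, 59619, 56737 and 58803 normalized counts in Ndp KO replicates 1 to 4, against 59325, 55850.0, 53674 and 41224 in WT replicates 1 to 4. WT replicate 4 was far the lowest library, WT replicates 2 and 3 also lay below the Ndp KO range and WT replicate 1 lay within it, for a log2 difference of 0.18 ± 0.14 (SE). Hspa2 was the steadiest member, with 8772, 9098, 9494 and 9101 normalized counts in Ndp KO replicates 1 to 4, against 9261, 9150.2, 9349 and 9572 in WT replicates 1 to 4. Its log2 difference was -0.03 ± 0.10 (SE), and its SD within genotype on the log2 scale was 0.0383. Of 10 HSP70 genes, 7 had higher Ndp KO means on the log2 scale and 3 lower ones, with a median of 0.06, and 0 were called by limma. Among the divergent HSP70 genes, Hspa12a had 633 ± 157 in Ndp KO and 528 ± 239.6 in WT (SD, n = 4 each), and Hspa13, whose protein is bound to microsomes, had 1137 ± 178 in Ndp KO and 1146 ± 526 in WT (SD, n = 4 each). Hspa14, which encodes a ribosome-associated HSP70, had 1497 ± 63.4 in Ndp KO and 1395 ± 259 in WT (SD, n = 4 each).

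The inducible HSP70 genes were low and varied widely within both genotypes. Hspa1a (ENSMUSG00000091971, chr17:34969190-34972156, minus strand) and Hspa1b (ENSMUSG00000090877, chr17:34956436-34959238, minus strand) are neighbouring copies in mm10 with near-identical sequence, so the split of reads between them is uncertain. Hspa1a had 137, 168, 20.8 and 55 normalized counts in Ndp KO replicates 1 to 4, against 44.3, 173, 102 and 53.5 in WT replicates 1 to 4. Hspa1b had 356, 217, 145 and 213 normalized counts in Ndp KO replicates 1 to 4, against 242, 507, 266 and 65.1 in WT replicates 1 to 4. Each genotype held both high and low libraries, the ranges overlapped broadly, and Ndp KO replicate 3 was the lowest library for Hspa1a and WT replicate 4 for Hspa1b. Their log2 differences were -0.16 ± 0.68 (SE) and 0.04 ± 0.55 (SE). Both changed sign with edgeR or DESeq2, to 0.02 and 0.03 for Hspa1a and to -0.22 and -0.21 for Hspa1b. Summed over both copies, the libraries held 493, 384, 166 and 268 normalized counts in Ndp KO replicates 1 to 4, against 286, 680.1, 368 and 119 in WT replicates 1 to 4. Hspa1l, a related gene beside Hspa1a that is known from the testis, had only 33 ± 12.4 in Ndp KO and 34.4 ± 20.3 in WT (SD, n = 4 each).

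Immediate early genes, which tissue dissociation can induce along with heat shock genes, were compared beside them. Of 15 such genes, 13 had log2 differences below 0 and 2 above 0, with a median of -0.63, and 7 had an unadjusted p under 0.05, each lower in Ndp KO, where 2.47% of all genes did. Limma called 0 of them over all genes. Fos had 8997 ± 2882 normalized counts in Ndp KO and 14998 ± 5136 in WT (SD, n = 4 each), and Egr2 894 ± 279.7 in Ndp KO and 2082 ± 1104 in WT (SD, n = 4 each), while Jun, with 6047 ± 1137 in Ndp KO and 9565 ± 3009 in WT (SD, n = 4 each), did not overlap between genotypes. Of the 12 genes of the inducible chaperone list, 8 had log2 differences above 0 and 4 below 0, with a median of 0.07 and a range of -0.16 to 0.36. The difference between the lists was not tested.

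The promoters of the inducible pair are shown because they are almost the same, differing at 4 of 300 letters. Capitals mark GAANNTTC or TTCNNGAA, on the gene's strand, and both words read the same on the opposite strand.
Hspa1a (chr17:34972107-34972406, minus strand): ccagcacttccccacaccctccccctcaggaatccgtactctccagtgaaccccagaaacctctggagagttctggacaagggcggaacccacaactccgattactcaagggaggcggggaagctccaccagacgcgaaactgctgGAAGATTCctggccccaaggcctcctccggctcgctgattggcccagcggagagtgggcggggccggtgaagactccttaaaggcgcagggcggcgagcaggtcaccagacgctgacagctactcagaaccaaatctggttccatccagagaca
Hspa1b (chr17:34959189-34959488, minus strand): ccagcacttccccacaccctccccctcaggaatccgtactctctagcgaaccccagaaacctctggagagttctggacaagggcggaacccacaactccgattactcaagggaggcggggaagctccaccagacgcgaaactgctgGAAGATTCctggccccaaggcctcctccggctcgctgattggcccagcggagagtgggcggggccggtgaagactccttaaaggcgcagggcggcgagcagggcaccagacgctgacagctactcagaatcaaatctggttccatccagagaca
At least 1 such match stood in 28.3% of the 53 member genes with a promoter in the RefSeq tables, against 17% of 27025 genes in all. The longer words of 3 units, GAANNTTCNNGAA or its reverse complement TTCNNGAANNTTC, which contain both short words, stood in 4 of the 53 member genes (7.55%), against 0.662% of all genes. The 4 are Hspd1, Hspe1, Hsph1 and Dnajb6. The matching windows of Hspd1 and Hspe1 share 285 of 300 bases and hold the same matches, so these genes are not separate sites. A match of letters is a description and does not show binding.

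The HSP110 genes, whose proteins exchange the nucleotide of HSP70, all had positive log2 differences, though 0 of 3 were called by limma. Hspa4l had 10050.3, 8515, 9175 and 7373 normalized counts in Ndp KO replicates 1 to 4, against 7000.4, 7839, 7997 and 4797 in WT replicates 1 to 4. WT replicate 4 lay well below the other 7 libraries, and the genotypes overlapped in part. The log2 difference of Hspa4l was 0.36 ± 0.18 (SE) (limma, adjusted p = 0.903). Hsph1, an inducible HSP110 gene, had 8949 ± 1092 normalized counts in Ndp KO and 7734 ± 816 in WT (SD, n = 4 each), with a difference of 0.21 ± 0.14 (SE) on the log2 scale. Hspa4 had 5999 ± 309 in Ndp KO and 5888 ± 1125 in WT (SD, n = 4 each), with a difference of 0.04 ± 0.15 (SE) on the log2 scale. This promoter of Hsph1 holds the longer word, which begins 15 bases after the first base of the transcript, and is shown for that.
Hsph1 (chr5:149636266-149636565, minus strand): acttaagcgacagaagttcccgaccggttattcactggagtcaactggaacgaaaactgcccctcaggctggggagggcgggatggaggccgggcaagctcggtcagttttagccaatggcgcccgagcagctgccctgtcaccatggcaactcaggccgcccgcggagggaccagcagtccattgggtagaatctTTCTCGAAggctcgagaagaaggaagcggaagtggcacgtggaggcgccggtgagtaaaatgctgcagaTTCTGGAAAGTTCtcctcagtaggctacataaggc

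The mitochondrial chaperones were abundant and without a called difference. Hspd1 (ENSMUSG00000025980, chr1:55077835-55088243, minus strand) and Hspe1 (ENSMUSG00000073676, chr1:55088132-55091307, plus strand) encode the chaperonin HSP60 and its lid HSP10, and the genes lie head to head. Hspd1 had 11784, 11159.6, 9829 and 10356 normalized counts in Ndp KO replicates 1 to 4, against 11757, 8984, 10485 and 9851 in WT replicates 1 to 4. Hspe1 had 3330.4, 3022, 2517 and 3169.8 normalized counts in Ndp KO replicates 1 to 4, against 3604, 1777, 2537 and 5839 in WT replicates 1 to 4. The Ndp KO libraries of Hspe1 lay close together, while WT replicate 4 stood far above and WT replicate 2 below all other libraries. The log2 differences were 0.07 ± 0.13 (SE) for Hspd1 and -0.06 ± 0.30 (SE) for Hspe1. Transcripts of other genes share 53.1% of the 31-base stretches of Hspd1 and 30.5% of those of Hspe1. The largest share with a single gene was 46.5% for Hspd1, with Hspd1-ps3, and 23.1% for Hspe1, with AC117239.2. Hspa9, the HSP70 of mitochondria, had 12079 ± 671 in Ndp KO and 11095 ± 2288 in WT (SD, n = 4 each), and Dnaja3, its J protein, had 3921 ± 416 in Ndp KO and 3350.3 ± 197 in WT (SD, n = 4 each), with a difference of 0.22 ± 0.13 (SE) on the log2 scale. A window of Hspd1 and the window of Hspe1 share 285 of 300 bases on opposite strands. They are shown because the same 2 matches of the longer words stand in both windows. A further annotated window of Hspd1 (chr1:55088194-55088493, minus strand) holds no match of the short or longer words and is not shown.
Hspd1 (chr1:55087883-55088182, minus strand): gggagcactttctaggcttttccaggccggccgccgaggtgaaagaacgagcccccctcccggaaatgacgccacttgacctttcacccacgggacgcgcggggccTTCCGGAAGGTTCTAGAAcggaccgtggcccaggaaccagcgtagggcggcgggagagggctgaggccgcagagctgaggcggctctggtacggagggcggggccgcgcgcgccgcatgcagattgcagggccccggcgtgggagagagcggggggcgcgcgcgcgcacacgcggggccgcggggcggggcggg
Hspe1 (chr1:55087898-55088197, plus strand): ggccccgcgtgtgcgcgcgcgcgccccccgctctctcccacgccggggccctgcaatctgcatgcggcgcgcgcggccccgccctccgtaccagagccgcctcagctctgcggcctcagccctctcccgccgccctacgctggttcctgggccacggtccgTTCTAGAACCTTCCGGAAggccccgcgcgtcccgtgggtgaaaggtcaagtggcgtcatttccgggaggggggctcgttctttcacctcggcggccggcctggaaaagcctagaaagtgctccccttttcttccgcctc

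The 6 small heat shock genes compared had a median of 128 normalized counts (means over 8 libraries) and a median SD within genotype of 0.48 on the log2 scale. Hspb1, which encodes HSP25, had 102, 228, 131 and 129.8 normalized counts in Ndp KO replicates 1 to 4, against 125, 110.5, 88.1 and 124 in WT replicates 1 to 4. Ndp KO replicate 2 stood well above the other 7 libraries, which overlapped between genotypes. Hspb6, the gene of HSP20, had 289 ± 91.7 in Ndp KO and 383 ± 114 in WT (SD, n = 4 each), with a difference of -0.41 ± 0.31 (SE) on the log2 scale. Hspb8, whose protein acts with Bag3 in clearing misfolded proteins, had 118, 180.5, 97.4 and 141 normalized counts in Ndp KO replicates 1 to 4, against 168, 125, 147 and 36 in WT replicates 1 to 4. Its one distant library was WT replicate 4, and without that replicate the log2 difference was -0.15, against 0.34 with all libraries. Hspb3, a muscle gene, had 31.6, 2.94, 2.71 and 67.1 normalized counts in Ndp KO replicates 1 to 4, against 48.6, 21, 11.7 and 66.3 in WT replicates 1 to 4, with high and low libraries in both genotypes. Ndp KO replicates 2 and 3 lay at the worth of 3 reads. The log2 difference of Hspb3 was -1.21 ± 1.02 (SE) in limma, against -0.50 in edgeR and DESeq2. Hspb11 encodes a subunit of intraflagellar transport, which builds cilia, and had 583 ± 47.5 in Ndp KO and 647 ± 239 in WT (SD, n = 4 each). Of 6 small heat shock genes compared, 2 were above 0 in log2 difference and 4 below, with a median of -0.23. The 8 muscle and pericyte markers, cells in which several of these genes are known to be read, summed to 975 to 1645 normalized counts in the Ndp KO libraries and 696 to 1837 in the WT libraries, and their part in these values was not tested.

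The Dnaja genes encode J proteins built like bacterial DnaJ, most of them partners of cytosolic Hsc70. All had positive log2 differences, and 0 of 4 were called by limma. Dnaja4 had 14289.5, 11542, 15638 and 11139 normalized counts in Ndp KO replicates 1 to 4, against 10322, 12882, 10344 and 8543 in WT replicates 1 to 4. WT replicate 2 lay within the Ndp KO range and the other 3 WT libraries below it, for a log2 difference of 0.32 ± 0.16 (SE) (limma, adjusted p = 0.905). Transcripts of Wdr61 share 43.2% of the 31-base stretches of Dnaja4, and their part in its counts was not tested. Between the libraries that share a title date, Dnaja4 was lower in Ndp KO, with 11542 normalized counts in Ndp KO and 12882 in WT. Dnaja1 had 16072, 16062, 15842 and 16062 normalized counts in Ndp KO replicates 1 to 4, against 16931, 14230.2, 15670.5 and 14726 in WT replicates 1 to 4, and the Ndp KO libraries differed by less than the WT libraries did. Dnaja2 had 9403 ± 864 in Ndp KO and 8499 ± 935 in WT (SD, n = 4 each).

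The Dnajb genes showed little difference in either direction: 6 of 11 had higher Ndp KO means on the log2 scale and 5 lower ones, with a median of 0.00021. Dnajb1, the heat-inducible HSP40, had 3438, 3534, 3886 and 3415 normalized counts in Ndp KO replicates 1 to 4, against 3473, 2878, 3547 and 3409 in WT replicates 1 to 4. WT replicate 2 was lowest and Ndp KO replicate 3 highest, and the log2 difference was 0.10 ± 0.13 (SE). Dnajb6, which holds back aggregates of polyglutamine proteins, had 10012 ± 963 in Ndp KO and 9956 ± 838 in WT (SD, n = 4 each), and Dnajb11, a J protein of the endoplasmic reticulum, had 10502 ± 569 in Ndp KO and 10534 ± 1217 in WT (SD, n = 4 each). Their log2 differences of 0.01 and 0.0013 changed sign under other scalings and are not distinguishable from 0. Dnajb3, a gene known from the testis, had 68.5, 154, 127 and 79.2 normalized counts in Ndp KO replicates 1 to 4, against 166, 145, 161 and 143 in WT replicates 1 to 4. Ndp KO replicates 1, 3 and 4 lay below all WT libraries and Ndp KO replicate 2 among them, for a log2 difference of -0.59 ± 0.33 (SE). Dnajb14, a membrane J protein of the endoplasmic reticulum, had 2017 ± 189 in Ndp KO and 2394 ± 396 in WT (SD, n = 4 each), with a difference of -0.24 ± 0.15 (SE) on the log2 scale.

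The Dnajc class is the most varied, and its 26 genes had 14 positive and 12 negative log2 differences with a median of 0.0016. Apart from Dnajc6 and Dnajc28, described above, none had an unadjusted p under 0.05. Dnajc7, a co-chaperone of HSP70 and HSP90 and the second most counted of the class, had 7087 ± 599.9 in Ndp KO and 6936 ± 904 in WT (SD, n = 4 each). The genes lower in Ndp KO with the smallest p were Dnajc25, with 394 ± 96.8 in Ndp KO and 529 ± 102 in WT (SD, n = 4 each), Dnajc11, a mitochondrial J protein, with 5049 ± 452 in Ndp KO and 5719 ± 518 in WT (SD, n = 4 each), and Dnajc1, of the endoplasmic reticulum membrane, with 836 ± 79.7 in Ndp KO and 988 ± 143 in WT (SD, n = 4 each). Their log2 differences were -0.44 ± 0.25 (SE), -0.18 ± 0.13 (SE) and -0.23 ± 0.17 (SE). Dnajc19, a part of the mitochondrial import motor, had 1222, 1533, 1385 and 1431 normalized counts in Ndp KO replicates 1 to 4, against 1772, 969, 990.2 and 2128 in WT replicates 1 to 4. WT replicates 1 and 4 were above, and WT replicates 2 and 3 below, every Ndp KO library. The related gene Dnajc15 had its highest value in WT replicate 4 as well, at 5217 normalized counts, where the other 7 libraries held 2050.2 to 3303. Both genes were chosen after their values were seen, as were Dnajc27, Dnaja2, Dnajb2, Dnajb4, Hspa12a, Hspa13 and Hspa14.

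WT replicate 4 held the extreme value of more members than any other library did. It was the highest library for 14 of 64 members (21.9%), beside 21.2% of all genes tested, and the lowest for 20 (31.3%), beside 20% of all genes tested. Over all genes, those highest in WT replicate 4 had a median exon length of 2527 bases and those lowest in it 5226 bases. For members the medians were 3979 bases for those highest and 4305.5 bases for those lowest in it. The part of transcript length in the members' values was not tested. Without WT replicate 4 the log2 difference was 0.07 for Hspa8, against 0.18 with all libraries. It was 0.20 for Hspa4l, against 0.36, and 0.23 for Dnaja4, against 0.32. For Hspe1 it was 0.24, against -0.06. It was 0.06 for Dnajc5, against 0.23, 0.24 for Dnajc9, against 0.41, and 0.04 for Hspa9, against 0.14. Among members lower in Ndp KO it was -0.14 for Dnajb14, against -0.24, -0.15 for Dnajc1, against -0.23, and -0.26 for Hspb6, against -0.41.

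Members varied less between libraries of a genotype than genes in general. Their median SD within genotype was 0.263 on the log2 scale, against 0.399 over all genes tested, and 45 of 64 members lay below that. After Hspa2, the steadiest were Dnaja1 at 0.0782, Dnajb2 at 0.0814 and Dnajb4 at 0.0997. The widest among those compared were Hspb3 at 1.7, Hspa1a at 1.15 and Hspa1b at 0.948. Members also had higher counts, with a median of 1437 normalized counts against 579.9, and the comparison was not matched for level. The median SD was 0.48 for the small heat shock genes and 0.52 for the HSP70 genes, both above that of all genes tested. These values are a description, without a test.

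**Figure D4:**
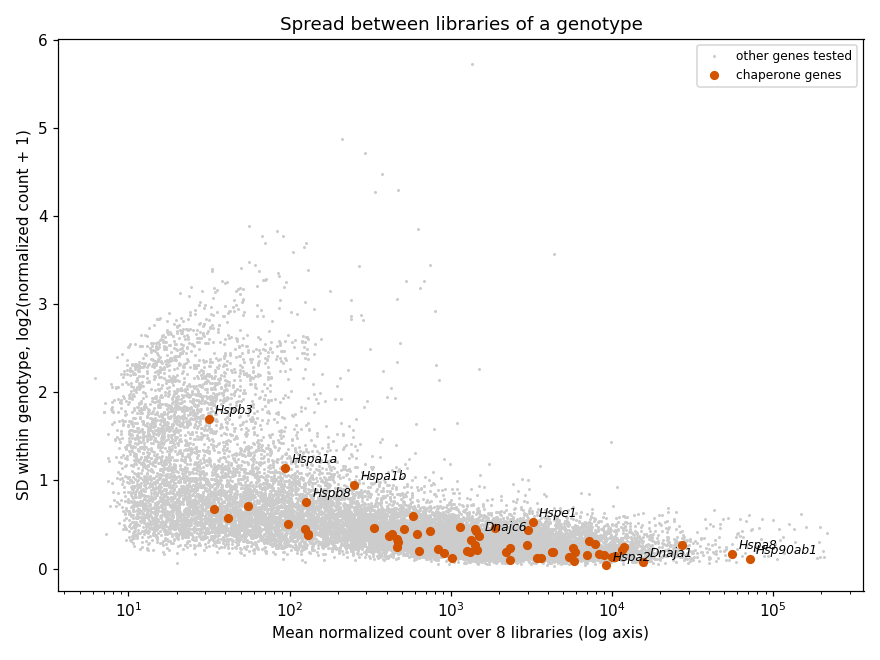
SD within genotype of log2(normalized count + 1) against the mean normalized count (log axis), with 64 members as large points and the other genes tested as small ones. Hspa2, Dnaja1 and Hsp90ab1 lie near the lower edge, and Hspb3, Hspa1a and Hspa1b lie highest among the members.

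Whether the inducible genes varied together was tested over all 8 libraries. The log2 of summed Hspa1a and Hspa1b was set against 10 other genes of the inducible list and Fos, 11 relations in all, by exact two-sided permutation tests. None passed, with adjusted p of 0.273 to 0.87 for Pearson's r and of 0.612 to 1 for Spearman's rho. The strongest was negative, with Hspe1 (r = -0.69, exact permutation p = 0.0574, adjusted p = 0.273; rho = -0.43, p = 0.299, adjusted p = 0.612). Without the 2 libraries farthest from the median of the sum, WT replicates 2 and 4, it was 0.39, so that relation rests on those libraries. For Hspa8 r was 0.63 (exact permutation p = 0.0934, adjusted p = 0.273) with a rho of 0.43, and r was 0.33 without those libraries. For Fos r was 0.42 (exact permutation p = 0.301, adjusted p = 0.473) with a rho of 0.38, and r was 0.34 without them. Relations within a genotype were not tested.

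The regulators and partners of these chaperones were compared as well. Hsf1, the heat shock factor that induces them, had 2298 ± 177 normalized counts in Ndp KO and 2128 ± 429.7 in WT (SD, n = 4 each), with a difference of 0.13 ± 0.16 (SE) on the log2 scale. Of 5 genes compared from the list of heat shock factors and their binding proteins, 3 had log2 differences above 0 and 2 below 0. Above 0 were Hsf1 and the binding protein genes Hsbp1 and Hsf2bp, and below 0 were the factors Hsf2 and Hsf5. Of these 5 genes, 0 were called by limma. Of 33 co-chaperones of HSP70 and HSP90, 21 were above 0 in log2 difference and 12 below, with a median of 0.03. Limma called 0 of them, and 3 were higher at an unadjusted p under 0.05, against 3.1% of all genes, and 0 lower, against 2.47% of all genes. Hyou1, an HSP110-like exchange factor of the endoplasmic reticulum, had 20148 ± 4604 normalized counts in Ndp KO and 12858 ± 3212 in WT (SD, n = 4 each) (unadjusted p = 0.014, limma adjusted p = 0.895). The genotypes of Hyou1 overlapped: Ndp KO replicate 2, at 13272, lay below WT replicates 2 and 3, at 14431 and 16611.5. Between the libraries of the shared title date, replicate 2 of each genotype, Hyou1 was thus lower in Ndp KO. Bag4, which binds HSP70, had a log2 difference of 0.37 ± 0.17 (SE). Ahsa1, which speeds the ATP hydrolysis of HSP90, had 4579.7, 4561, 4775 and 4346 normalized counts in Ndp KO replicates 1 to 4, against 4017, 3778, 3590.4 and 3521 in WT replicates 1 to 4. Its genotypes did not overlap, its log2 difference was 0.29 ± 0.11 (SE), and its adjusted p was 0.895 in limma. Bag2, an exchange factor of HSP70, was the other co-chaperone without overlap, at a log2 difference of 0.22 ± 0.13 (SE), where 1.46% of all genes did not overlap with Ndp KO higher. The lower co-chaperones with the smallest p were Hspbp1, with a log2 difference of -0.22 ± 0.17 (SE), and Fkbp5, with -0.18 ± 0.21 (SE). Of 14 genes of the TRiC chaperonin and prefoldin, which fold actin and tubulin, 10 had higher Ndp KO means on the log2 scale and 4 lower ones, from -0.11 to 0.14, and 0 had an unadjusted p under 0.05.

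Dnajb7 and Hspb9 lay under the minimum count and were not compared. Dnajb7 had 8.43, 4.9, 9.92 and 13.2 normalized counts in Ndp KO replicates 1 to 4, against 0, 16.4, 7.02 and 0 in WT replicates 1 to 4. Hspb9 had 0, 0.981, 6.32 and 5.5 normalized counts in Ndp KO replicates 1 to 4, against 0, 0, 0 and 0 in WT replicates 1 to 4, so every WT library was at 0. In each library 0 allows up to the worth of 3 reads. The members just inside the minimum were Hspb3, Hspa1l and Hspa12b, a divergent HSP70 of endothelial cells, which exceeded the minimum in at least 4 libraries and whose values at that rank were 31.6, 36.5 and 43 normalized counts. Hspa12b had 22.1, 53.9, 22.6 and 48.4 normalized counts in Ndp KO replicates 1 to 4, against 70.7, 40.2, 32.7 and 43 in WT replicates 1 to 4, with overlapping genotypes.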

How the data were processed

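Hair cells were sorted by Atoh1-GFP, and their RNA (RNeasy Plus Micro Kit) was copied with SMART-Seq v4 and made into Nextera XT libraries, per the labels' protocols. Strand is not kept by that kit, so antisense overlaps stay mixed. The authors deposited 1 table, whose signal columns are normalized counts, each library being gene counts over a size factor of its own, as far as the values show. The deposited table also holds log2 fold changes and p-values of the authors' DESeq2 comparison, per the file headers. The submitters' processing notes list, with no roles, the build mm10, DESeq2 1.26.0, Salmon 0.14.2 and bcl2fastq 2.20.

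Whole reads were recovered from the step between values of a column: 100% of 202744 values lay within a relative tolerance of 1e-06 of a whole number. The design named edgeR for counts and limma for normalized values, and the table held normalized values. The main test was therefore limma 3.58.1 (R 4.3.3), two-sided, with an intensity trend, on log2(normalized count + 1), adjusted by Benjamini-Hochberg over the 18203 genes that reached 10 normalized counts in 4 or more libraries. Fold changes on that scale can understate the change of low genes. Hspb1 had 0.34 in limma, against 0.39 in edgeR and 0.40 in DESeq2. For some low members the limma fold change was instead larger in size than in edgeR and DESeq2. Hspb3 had -1.21 in limma, against -0.50 in both. edgeR 4.0.16 and DESeq2 1.42.0 on recovered reads were alternatives, and on 18203 and 25078 genes they called 0 and 34. Without molecular identifiers, PCR reads are not separate molecules, and floors of 3 reads cover counting error only. On simulated data over 18203 genes, limma called 24 of 100 genes changed 2-fold and 62 of 100 changed 4-fold, with 8 false calls, and edgeR gave the same numbers. The simulated counts were drawn for each gene independently, around the real means. Shifts of a library that move many genes together were not simulated, so these shares need not hold for the real libraries.

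Groups came from the genotype labels, and replicate numbers follow accession order. Members and gene lists were chosen with earlier results of these data known. Genes named are 17 key members, up to 6 per direction with the smallest p, the 2 highest per family, and those nearest the minimum count. Exon lengths and 31-base stretches came from GENCODE M21, promoter windows from RefSeq on GRCm38.p6, which covers 53 of the 66 members.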

Additional observations from a re-analysis of the deposited data

Results flagged for a closer look

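Of 70 groups of 4 libraries examined for the named members, 1 held a library far from the others, where chance flags about 1 in 20 groups. Dnaja1 had 15842 normalized counts in Ndp KO replicate 3, and the other 3 Ndp KO libraries held 16062 to 16072. The gap took 0.954 of the group's range, but the whole range was small beside that of the WT libraries, 14230.2 to 16931.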

How the results depend on the processing

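No member was called under any of the 18 alternative settings: other pseudocounts, minimum counts, scalings, tests, or libraries left out. Members higher at an unadjusted p under 0.05 numbered 2 by limma with all libraries, 3 without both libraries of the shared title date, and 1 to 5 with single replicates left out: 1 without Ndp KO replicate 1, 2 or 3 or WT replicate 1 or 4, 4 without Ndp KO replicate 4 or WT replicate 3, and 5 without WT replicate 2. Lower ones numbered 0 to 1, the 1 without Ndp KO replicate 2 or WT replicate 3. No paired analysis was possible because the labels give no replicate numbers shared by the genotypes, and only 1 title date occurs in both. Log2 differences near 0 changed sign in some settings. With edgeR and DESeq2 they were 0.020 and 0.025 for Hspa1a, -0.22 and -0.21 for Hspa1b, -0.069 and -0.068 for Hspa1l, and -0.010 and -0.0044 for Dnajb11. CPM scaling gave -0.0077 for Dnajb11 and -0.0021 for Dnajb6, and TMM scaling -0.0050 for Dnajb11. Without the shared-date libraries they were -0.030 for Dnajb6, -0.063 for Hspa1l and -0.0059 for Hspd1. With single replicates left out the ranges that crossed 0 were -0.052 to 0.055 for Dnajb11, -0.053 to 0.055 for Dnajb6, -0.036 to 0.10 for Dnajc7, -0.15 to 0.092 for Hsp90aa1, -0.56 to 0.42 for Hspa1a, -0.53 to 0.45 for Hspa1b, -0.18 to 0.37 for Hspa1l, -0.028 to 0.17 for Hspa4, -0.29 to 0.13 for Hspb11, -0.15 to 0.57 for Hspb8 and -0.33 to 0.24 for Hspe1. Relations with an adjusted p under 0.05 numbered 0 in every setting. The r of Hspa1a plus Hspa1b without the 2 farthest libraries was 0.24 with Hsp90aa1, 0.39 with Hspe1, 0.0084 with Dnaja1 and 0.64 with Dnajb4. It was 0.10 with Dnaja1 under CPM scaling, and 0.59 with Dnaja1 and -0.040 with Fos without the shared-date libraries. With single replicates left out r was -0.10 to 0.79 with Hspd1, -0.58 to 0.59 with Dnaja1 and -0.79 to 0.68 with Dnajb4. The causes were not tested.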
